A study of Mus musculus with 9 samples.

Results

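MHC class II and dendritic cell genes were followed here in mouse melanoma. They were the classical class II chains H2-Aa, H2-Ab1 and H2-Eb1, the invariant chain Cd74 and the peptide loading chains H2-DMa and H2-DMb1. With them were the class II coactivator Ciita and the genes Cd83, Itgax and Flt3, used as markers of dendritic cells. Every array probe carrying the current symbol or a synonym of 1 of these 10 genes was taken. That gave 10 genes of the 16820 named on the array, with 14 of its 41174 probes: 4 of H2-Ab1, 2 of H2-Aa and 1 of each other gene. Testing required a tumour signal marked well above background on 3 or more arrays of 9. All 14 probes were kept, among 26871 in all.

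The study grew tumours from 3 variants of B16-F10, a melanoma line of C57BL/6 mouse origin. They differ in L-histidine decarboxylase (HDC), the histamine-producing enzyme: histamine output is lowered in HDC-A, left as it was in HDC-M and raised in HDC-S. Each group comes from 1 variant, so that line and histamine level cannot be told apart. RNA of 6 tumours per group was combined in pairs of 2, giving 3 pools (replicates) per group, and each pool was labelled with Cy5 and hybridised beside the same Cy3-labelled RNA of HDC-M cells grown in culture, with no dye swap. All groups therefore share the cultured reference, all are B16-F10 tumours, and the labels used here give neither the site of the tumours nor the strain, age or sex of the hosts.

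Class II molecules present peptides from endosomes to CD4+ T cells. An alpha and a beta chain assemble with the invariant chain, the H2-DM heterodimer exchanges the invariant chain remnant for peptide, and Ciita switches on the whole set together with the RFX complex, NF-Y and CREB factors at the X and Y boxes of the promoters. Dendritic cells, macrophages and B cells express the set constantly or after activation, and interferon gamma induces Ciita in many other cell types, melanoma cells among them.

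The promoter windows of H2-Aa, H2-Eb1 and H2-DMb1 are shown because they hold the letters of these boxes. They come from RefSeq on build GRCm38.p6 and run from 250 bases before to 50 bases after the gene's start. The build of the array files is not given in the sources used here. H2-Aa lies on the minus strand at chr17:34287774-34288073, H2-Eb1 on the plus strand at chr17:34305617-34305916 and H2-DMb1 on the plus strand at chr17:34152941-34153240. Capitals mark the letters AACNGATG (within the X box), TGACGTCA (the palindrome that CREB factors bind) and GATTGG or its reverse complement (within the Y box), searched on both strands.
H2-Aa: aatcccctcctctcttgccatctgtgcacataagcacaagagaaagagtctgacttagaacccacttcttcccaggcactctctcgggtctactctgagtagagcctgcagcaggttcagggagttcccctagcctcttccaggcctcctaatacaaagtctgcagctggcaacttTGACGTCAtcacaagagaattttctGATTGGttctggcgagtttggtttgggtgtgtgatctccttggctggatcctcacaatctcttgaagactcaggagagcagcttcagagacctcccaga
H2-Eb1: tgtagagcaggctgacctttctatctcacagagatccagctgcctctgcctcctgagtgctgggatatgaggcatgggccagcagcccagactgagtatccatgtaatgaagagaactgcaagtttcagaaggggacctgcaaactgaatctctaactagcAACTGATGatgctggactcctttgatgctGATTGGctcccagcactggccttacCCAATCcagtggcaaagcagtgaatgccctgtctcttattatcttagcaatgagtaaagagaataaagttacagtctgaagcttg
H2-DMb1: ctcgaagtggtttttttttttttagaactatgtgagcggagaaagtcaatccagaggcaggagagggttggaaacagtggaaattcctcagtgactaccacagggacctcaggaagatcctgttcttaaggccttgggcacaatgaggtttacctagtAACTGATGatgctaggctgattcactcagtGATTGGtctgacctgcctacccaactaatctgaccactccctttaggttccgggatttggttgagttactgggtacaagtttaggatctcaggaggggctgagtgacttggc

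In H2-Eb1 the X box letters ended 21 bases before GATTGG, and in H2-DMb1 they ended 22 bases before it, in the same order and on the same strand. In H2-Aa the X box letters did not match in this window, and TGACGTCA stood 17 bases before GATTGG. The Y box letters alone were common, in 16.1% of the 32851 windows of 27025 genes in the table, whereas AACNGATG stood in 2.32% and TGACGTCA in 1.79%. The X box letters followed by GATTGG within 30 bases on the same strand were found in 7 windows (0.0213%), those of H2-Eb1, H2-DMb1, their neighbours H2-Eb2 and H2-DMb2, H2-M10.4, G3bp2 and BC051142. This combination was chosen after the windows had been read, so its rarity is a description. Of the 10 genes, 6 had a window in the table. H2-DMa had GATTGG in 1 of its 2 windows and no X box letters, and none of the letters were in the windows of Itgax and Flt3. H2-Ab1, Cd74, Ciita and Cd83 are named only.

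The tumour channel was well above background at 57.98% to 69.7% of probe spots. In each group pool 3 had the highest share, at 65.8% (HDC-A), 69.7% (HDC-M) and 62.55% (HDC-S), against 57.98% to 60.78% for the other pools. Log2 ratios correlated across probes at r of 0.90 to 0.95 within and 0.86 to 0.92 between groups, and 3 arrays per group limit the precision of every value below. Replicates 1 and 2 of each group were scanned on 1 day and replicate 3 of each group on another. Hdc itself, the modified gene, had a dim probe with log2 ratios of 0.15, 0.15 and 0.42 in the HDC-A pools, 0.60, 0.48 and 0.06 in the HDC-M pools and 0.44, 0.33 and 0.61 in the HDC-S pools, so its groups overlapped. 2 pools stood apart for the class II genes, HDC-A pool 1 and HDC-M pool 3, and results that rest on them are given with and without them. RNA of whole tumours cannot tell fewer cells of a type from less RNA per cell.

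All values that follow are log2 ratios of Cy5, the tumour pool, over Cy3, the cultured reference, unless stated otherwise, and pools are given in the order 1, 2, 3. H2-Aa and H2-Ab1 encode the alpha and beta chains of the I-A molecule. H2-Aa (probe A_52_P343306) read 0.78, 2.25 and 2.03 in HDC-A, 2.21, 2.28 and 0.61 in HDC-M and 2.02, 2.29 and 2.30 in HDC-S pools. 7 of the 9 pools lay between 2.02 and 2.30, HDC-A pool 1 and HDC-M pool 3 far below them, and the 3 groups overlapped. The other H2-Aa probe (A_51_P119760) gave 0.64, 2.07 and 1.92, then 1.90, 2.08 and 0.57, then 1.78, 2.01 and 2.11, with the same 2 pools lowest.

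H2-Ab1 had its brightest probe in A_52_P683598, which read 3.18, 4.41 and 3.68 in HDC-A, 3.81, 4.10 and 2.78 in HDC-M and 3.66, 3.89 and 3.60 in HDC-S pools. Probe A_51_P215237 read 1.74, 3.61 and 2.84, then 2.65, 3.43 and 1.29, then 2.41, 3.01 and 3.06. The remaining H2-Ab1 probes spanned 0.51 to 2.29 (A_51_P215242) and 0.36 to 1.71 (A_52_P570717). On all 4 probes HDC-M pool 3 was lowest and HDC-A pool 1 next, and the groups overlapped.

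H2-Eb1, the beta chain of the I-E molecule, read 1.69, 3.32 and 2.65 in HDC-A, 2.32, 2.83 and 1.15 in HDC-M and 1.96, 2.74 and 2.66 in HDC-S pools. Its partner H2-Ea was not well above background on any of the 9 arrays, with log2 ratios from -0.11 to 0.19. As background, mice of the H2-b haplotype such as C57BL/6 carry a defective Ea gene and show no I-E on the cell surface. No probe was named for H2-Eb2, a second beta chain.

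Cd74 blocks the peptide groove and guides class II molecules to endosomes. It read 1.94, 3.54 and 3.25 in HDC-A, 3.01, 3.39 and 1.75 in HDC-M and 3.13, 3.49 and 3.35 in HDC-S pools. HDC-M pool 3 and HDC-A pool 1 were again the lowest, and HDC-S had the smallest spread, with an SD of 0.18 (n = 3) against 0.85 in HDC-A and 0.86 in HDC-M.

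The H2-DM chains load peptide. H2-DMb1 read 1.15, 2.79 and 2.82 in HDC-A, 2.82, 2.84 and 1.72 in HDC-M and 2.64, 2.87 and 3.05 in HDC-S pools. H2-DMa read 0.24, 1.15 and 1.55, then 1.41, 1.45 and 0.31, then 1.38, 1.27 and 1.40. Here HDC-A pool 1 was lowest and HDC-M pool 3 next, the reverse of the order in the classical chains. H2-DMb1 has a near-identical neighbour, H2-DMb2, so the signal may be shared between them. The brighter H2-DMb2 probe (A_52_P146877) read 0.13, 0.65 and 0.99, then 1.14, 1.05 and 0.23, then 0.96, 1.06 and 1.42, with the same pools lowest.

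Ciita, the coactivator, was dim and moved over a narrower range. It read 0.48, 0.74 and 1.02 in HDC-A, 0.90, 0.79 and 0.20 in HDC-M and 0.79, 0.90 and 0.84 in HDC-S pools. HDC-M pool 3 was lowest and HDC-A pool 1 next, as in the classical chains.

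The remaining members are used as markers of dendritic cells, and which cells carried their RNA was not tested. Cd83, a glycoprotein of mature dendritic cells that also occurs on activated lymphocytes, read 0.92, 1.64 and 1.05 in HDC-A, 1.36, 1.25 and 0.37 in HDC-M and 1.02, 1.69 and 0.87 in HDC-S pools. Itgax, the integrin CD11c, read 0.70, 0.95 and 0.86, then 1.06, 1.35 and 0.24, then 0.72, 1.03 and 1.06. For both genes HDC-M pool 3 alone lay clearly below the others. A further clone probe described as integrin alpha X (A_52_P424887), which carries no symbol and so was not counted as a member, ranged from -0.01 to 0.27. Flt3, the receptor whose ligand drives dendritic cell development, cleared the background on 4 arrays, 3 of HDC-S, 1 of HDC-M and none of HDC-A, and ranged from -0.01 to 0.25.

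**Figure D1:**
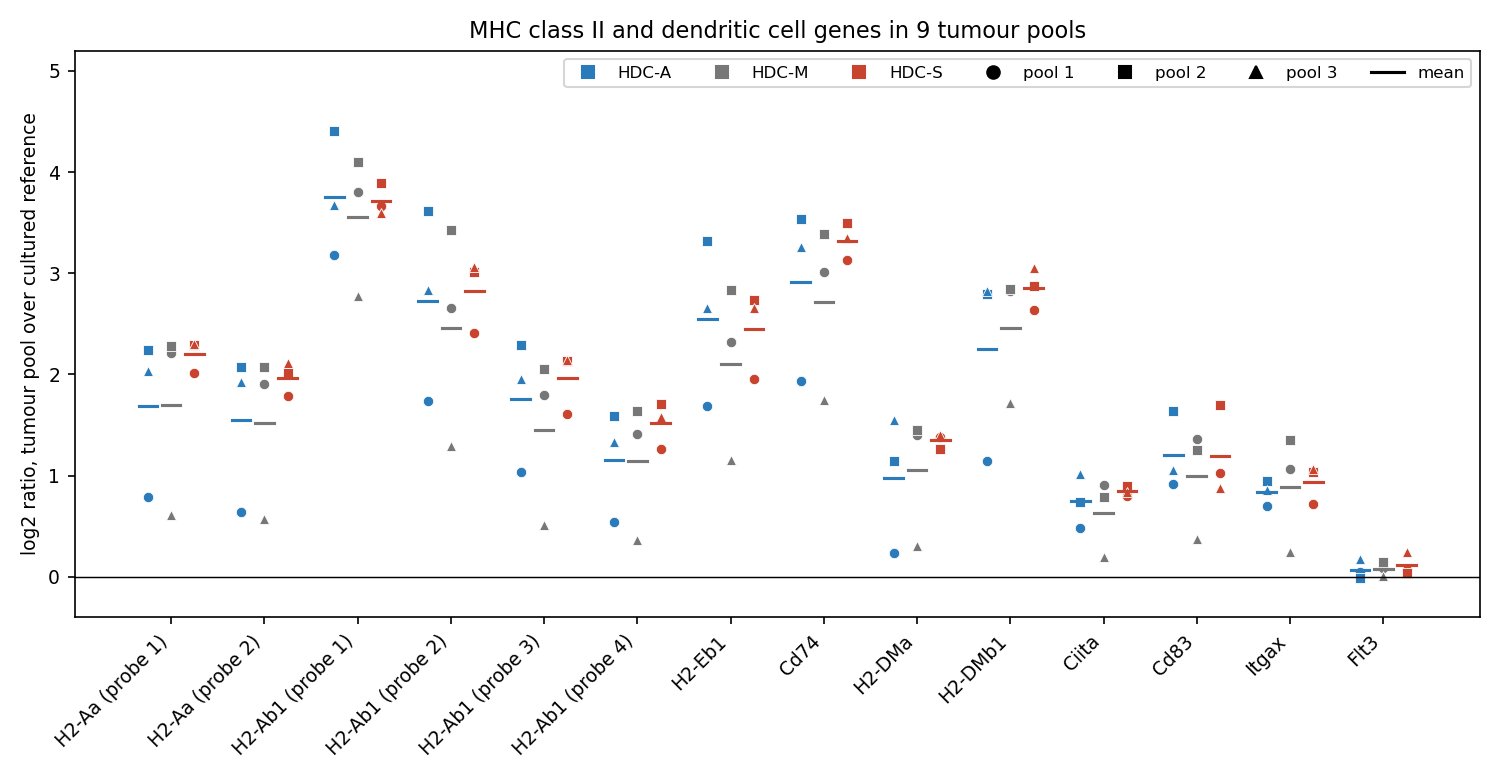
Log2 ratio of tumour pool over cultured reference (y axis) for each of the 14 probes (x axis). Points are single pools, coloured by group and shaped by pool number, and short lines are group means of 3 pools. HDC-A pool 1 (blue circles) and HDC-M pool 3 (grey triangles) lie below the other pools at every class II chain, while Flt3 stays between -0.01 and 0.25.

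Raw signals show how much of each ratio rests on the tumour channel. On each array the mean signal of the spot was divided by the median of the 314 negative control spots, whose 95th percentile in Cy3 was 1.05 to 1.08 times their median. In Cy5 the brightest H2-Ab1 probe reached 16.4 to 68.6 times the negative controls, H2-DMb1 10.9 to 44.1, Cd74 7.40 to 29.6 and H2-Eb1 5.48 to 16.03. H2-Aa (A_52_P343306) reached 2.56 to 8.82, H2-DMa 1.78 to 5.23, Cd83 2.22 to 4.11, Itgax 1.87 to 3.14, Ciita 1.31 to 2.63 and Flt3 0.963 to 1.17. No member spot was saturated in either channel.

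In Cy3, the cultured HDC-M cells, H2-DMb1 was above the 95th percentile of the negative controls on all 9 arrays, at 2.28 to 2.62 times their median. Cd74, at 1.18 to 1.65, the brightest H2-Ab1 probe, at 1.12 to 1.90, and H2-Eb1, at 1.073 to 1.199, were also above it on all 9 arrays, H2-Eb1 by little. So, by little, were H2-DMa (1.072 to 1.132) and H2-Aa by probe A_51_P119760 (1.095 to 1.149). Probes of a gene differed in this. H2-Aa by A_52_P343306 was above it on 6 arrays, and H2-Ab1 by A_51_P215242 on 0. Ciita (0.947 to 1.05), Itgax (0.947 to 1.03) and Flt3 (0.734 to 1.03) were above it on none. Their denominators are background, so a ratio to culture is only a lower limit for Ciita and Itgax. Flt3 was near the negative controls in the tumour channel too, so its ratio sets no limit.

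**Figure D2:**
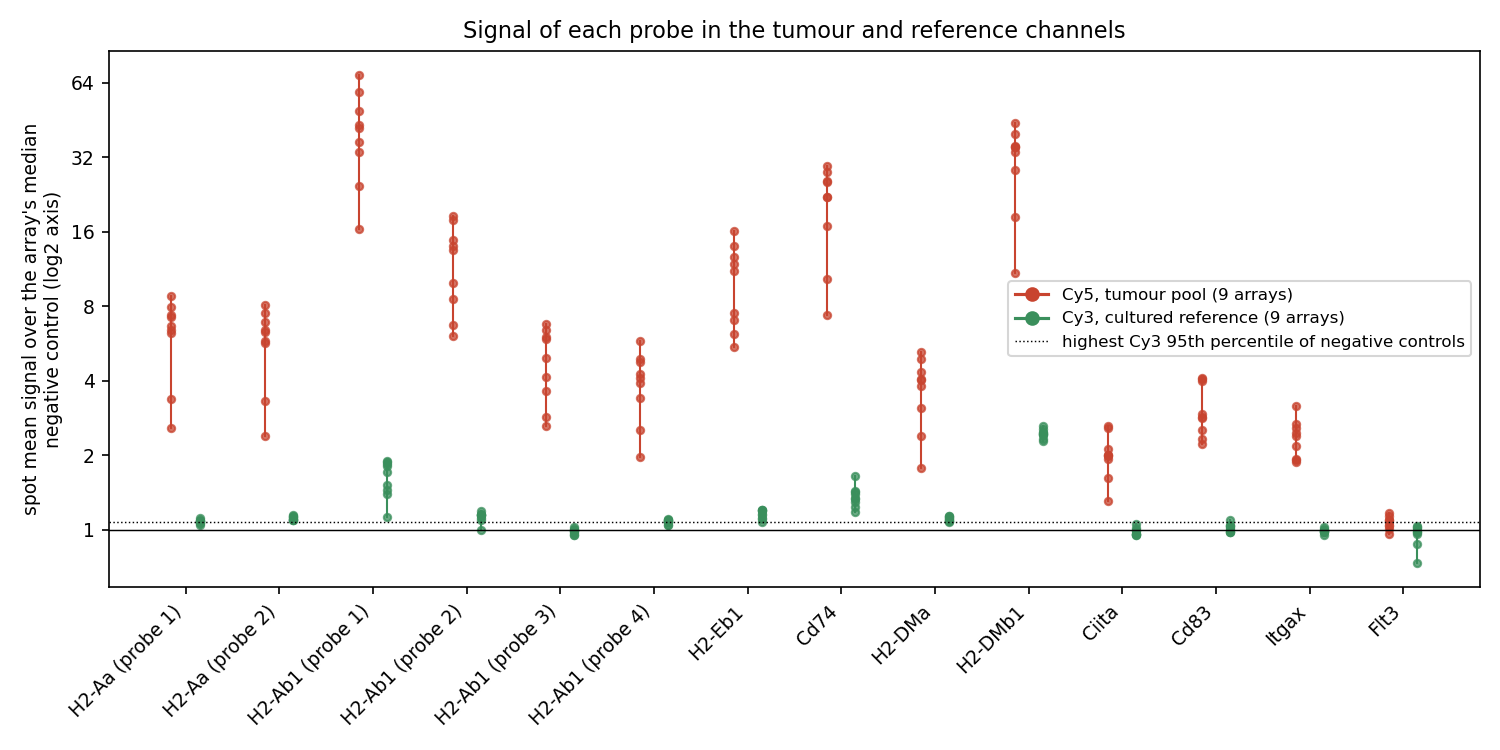
Spot mean signal over the median negative control of the array, on a log2 axis, for the tumour channel (Cy5, red) and the cultured reference (Cy3, green) at each probe, with 9 arrays per column and a line over their range. The dotted line is the highest Cy3 95th percentile of the negative controls, 1.08. H2-DMb1 has the highest reference signal, 2.28 to 2.62, and Flt3 stays near 1 in both channels.

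Against the cultured reference, 13 of the 14 probes passed as higher in tumours of each group (limma, adjusted p under 0.05 over all probes), all except Flt3. The shares of all probes tested that passed as higher were 38.9% (HDC-A), 34.0% (HDC-M) and 38.2% (HDC-S). Keeping a probe required tumour signal, so the members' count was helped by the filter and is no independent evidence. The reference is 1 RNA in 1 dye, and neither its own spread nor a dye effect is in these p-values. The brightest H2-Ab1 probe averaged 3.76 ± 0.62 (HDC-A), 3.56 ± 0.69 (HDC-M) and 3.72 ± 0.16 (HDC-S; SD, n = 3), with limma adjusted p of 1.47e-06, 2.37e-06 and 1.72e-06. Cd74 had means of 2.91 ± 0.85, 2.72 ± 0.86 and 3.32 ± 0.18, and H2-DMb1 of 2.25 ± 0.96, 2.46 ± 0.64 and 2.85 ± 0.21. The means of H2-Eb1 were 2.55 ± 0.82, 2.10 ± 0.86 and 2.45 ± 0.43, those of H2-Aa 1.69 ± 0.79, 1.70 ± 0.94 and 2.20 ± 0.16, and those of H2-DMa 0.98 ± 0.67, 1.05 ± 0.65 and 1.35 ± 0.07.

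Where the reference was within the negative controls on every array of a group, the fold is a bound. It was taken from the group's mean normalised Cy5 value over the mean of, per array, the higher of the 95th percentile of the negative controls and the probe's own Cy3 value. It is open to dye bias. Ciita was at least 1.56-fold (HDC-A), 1.55-fold (HDC-M) and 1.65-fold (HDC-S) higher in tumours than in culture. Itgax was at least 1.72-fold, 1.81-fold and 1.89-fold higher in the same order. Cd83 was at least 2.28-fold higher in HDC-A and 2.29-fold in HDC-S, and H2-Ab1 by probe A_51_P215242 at least 3.28-fold, 2.74-fold and 3.84-fold higher in the order of Ciita. Flt3 has no bound above 1 in any group, and its mean log2 ratios were 0.07, 0.08 and 0.12.

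HDC-S against HDC-M asks whether tumours of the line with raised histamine production differ in class II RNA from the unmodified ones. None of the 14 probes passed (limma, adjusted p under 0.05; 0.681% of all probes did). None had an unadjusted p under 0.05 either, as 14.5% of all probes had, and none had groups that did not overlap, as 21.6% of all probes had. All 14 probes had the higher mean in HDC-S, with a median difference of 0.36 against 0.01 over all probes, of which 53.19% were higher. Probes of a gene and genes of a pool are not independent, so this count of directions carries no test. Cd74 had the largest difference, 0.61 (SE 0.46, 95% interval -0.44 to 1.65, limma adjusted p = 0.607). H2-Aa differed by 0.50 (-0.56 to 1.56), H2-DMb1 by 0.39 (-0.61 to 1.39), H2-Eb1 by 0.35 (-0.73 to 1.43) and H2-Ab1, by its brightest probe, by 0.16 (-0.65 to 0.96). These differences were smaller than the SD among the HDC-M pools, which was 0.94 for H2-Aa and 0.86 for Cd74.

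The direction rested on HDC-M pool 3. With HDC-A pool 1 and HDC-M pool 3 both left out, 7 of the 10 genes were lower and 3 higher in HDC-S than in HDC-M, with a median difference of -0.06 over the genes and none passing (smallest adjusted p = 0.389). H2-Ab1 then differed by -0.235 and Cd74 by 0.12. Within the first scan day, which holds 2 pools of each group, 7 genes were lower, 2 higher and Ciita differed by 0.00, with a range from -0.33 to 0.11. On the second day, with 1 pool of each group and no test, all 10 genes were higher in HDC-S pool 3 than in HDC-M pool 3, by 0.24 to 1.68.

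HDC-A against HDC-M asks the same for lowered histamine production. Of the 14 probes none passed (1.44% of all probes did), none had an unadjusted p under 0.05 (15.5% of all probes) and none had groups without overlap (20.1% of all probes). By their means 9 were higher and 5 lower in HDC-A, and the median difference was 0.07 against 0.01 over all probes. H2-Eb1 differed most, by 0.45 (SE 0.48, 95% interval -0.63 to 1.53, limma adjusted p = 0.720), and H2-DMb1 was at -0.21 (-1.21 to 0.79). H2-Aa stood at -0.01 and its second probe at 0.03. Both groups of this comparison hold 1 of the low pools. Without both, 5 genes were higher and 5 lower. On the first scan day alone, where HDC-A has its low pool and HDC-M does not, all 10 genes were lower in HDC-A, by 0.02 to 0.86 on the log2 scale with none passing. On the second day, where the reverse holds, all 10 were higher, by 0.17 to 1.51.

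HDC-S against HDC-A sets the highest capacity for histamine against the lowest. None of the 14 probes passed, against 5.26% of all probes, none had an unadjusted p under 0.05, against 19.4%, and none had groups without overlap, against 23.8%. In HDC-S 11 probes were higher and 3 lower, with a median of 0.15. H2-DMb1 differed most, by 0.60 (SE 0.44, 95% interval -0.398 to 1.602, limma adjusted p = 0.541), followed by H2-Aa with 0.51 (-0.55 to 1.57). Without the low pools, H2-DMb1 differed by 0.05 and H2-Aa by 0.06, and 6 of 10 genes were lower in HDC-S. The F-test for any difference among the 3 groups passed at none of the 14 probes and at 4.65% of all probes (smallest adjusted p = 0.681, H2-DMb1).

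In the order of group means by each gene's brightest probe, HDC-S was highest for H2-Aa, Cd74, H2-DMa, H2-DMb1, Ciita, Itgax and Flt3, and HDC-A for H2-Ab1, H2-Eb1 and Cd83. The other 3 H2-Ab1 probes were highest in HDC-S. No neighbours in these orders differed beyond their spread. The intervals reach from -0.89 to 1.65 in HDC-S against HDC-M, from -1.21 to 1.53 in HDC-A against HDC-M and from -1.18 to 1.602 in HDC-S against HDC-A. For Ciita the intervals lay between -0.31 and 0.62 and for Flt3 between -0.18 and 0.22.

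**Figure D3:**
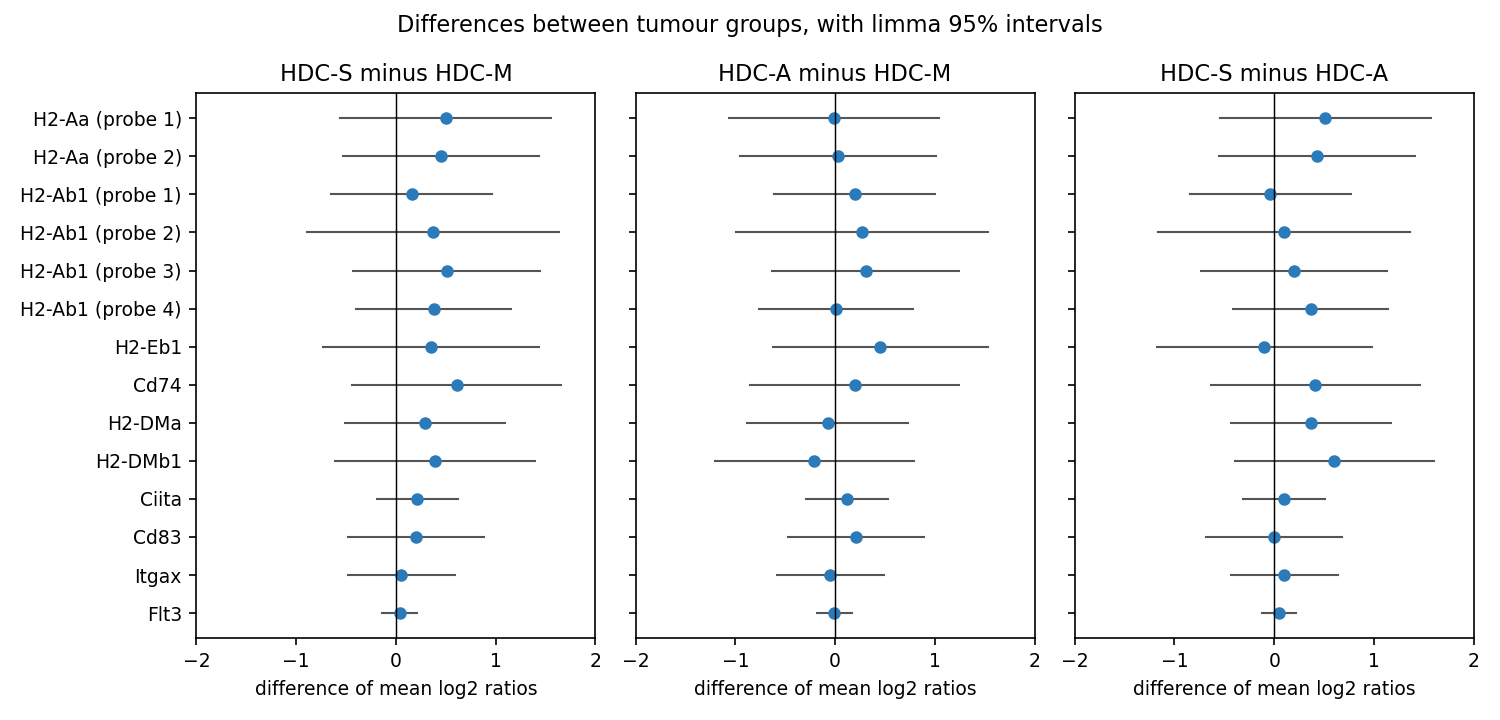
Differences of mean log2 ratios between tumour groups (x axis) for each of the 14 probes (y axis). Dots are differences and lines their 95% intervals from the limma fit of all 9 arrays. Every interval includes 0, and those of Ciita and Flt3 are the narrowest.

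The pools varied more than the groups. The mean of H2-Aa, H2-Ab1, H2-Eb1 and Cd74, each by its brightest probe, was 1.90, 3.38 and 2.91 in HDC-A, 2.84, 3.15 and 1.57 in HDC-M and 2.69, 3.10 and 2.98 in HDC-S pools. Ptprc, the leukocyte protein CD45, read 1.48, 2.70 and 2.10, then 1.803, 2.24 and 0.83, then 1.65, 2.24 and 2.07. The macrophage list (10 of 10 genes measured, among them Csf1r, Adgre1, Cd68 and Lyz2) had means of 1.63, 2.31 and 1.89, then 1.88, 2.02 and 1.14, then 2.09, 2.18 and 1.73. HDC-M pool 3 was the lowest of the 9 pools on all these measures, and HDC-A pool 1 the second lowest, by a smaller margin for the macrophage list, where HDC-S pool 3 lay close above it. The part of leukocyte content in the class II values was not tested.

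B cells also carry class II. Their list (5 of 6 genes measured) ranged in mean from 0.04 to 0.12 in HDC-A, 0.02 to 0.11 in HDC-M and 0.10 to 0.21 in HDC-S, with members on both sides of 0. Against the cultured reference Cd79b, of the B cell receptor, passed as higher in all 3 groups, with means of 0.37, 0.30 and 0.31. Ms4a1, which is CD20, passed as higher in HDC-A (0.46) and HDC-S (0.63) but not in HDC-M (0.34, limma adjusted p = 0.0604). Cd79a was lower in all 3 groups (-0.21, -0.20 and -0.20) and Cd22 in HDC-A (-0.21). Pax5 was well above background on 1 array. The T cell list (6 of 6) ranged from 0.15 to 0.25, 0.03 to 0.30 and 0.13 to 0.19 in the same order. MHC class I, by H2-D1, B2m and Tap1, read 1.41, 2.46 and 2.74 in HDC-A, 2.66, 2.60 and 1.70 in HDC-M and 2.37, 2.52 and 2.73 in HDC-S pools. On this list HDC-A pool 1 was the lowest and HDC-M pool 3 next, the order also seen in H2-DMa and H2-DMb1. The melanocyte list (5 of 7 genes, such as Tyr, Dct and Pmel) ranged from 0.40 to 0.56, 0.54 to 0.90 and 0.24 to 0.54, and neither low pool was the lowest or highest of the 9. Keratinocyte genes differed among the pools by more, from 1.94 to 3.48, 3.10 to 3.83 and 0.09 to 1.91, with both low pools within the range of their groups. The part of these lists in the class II values was not tested.

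**Figure D4:**
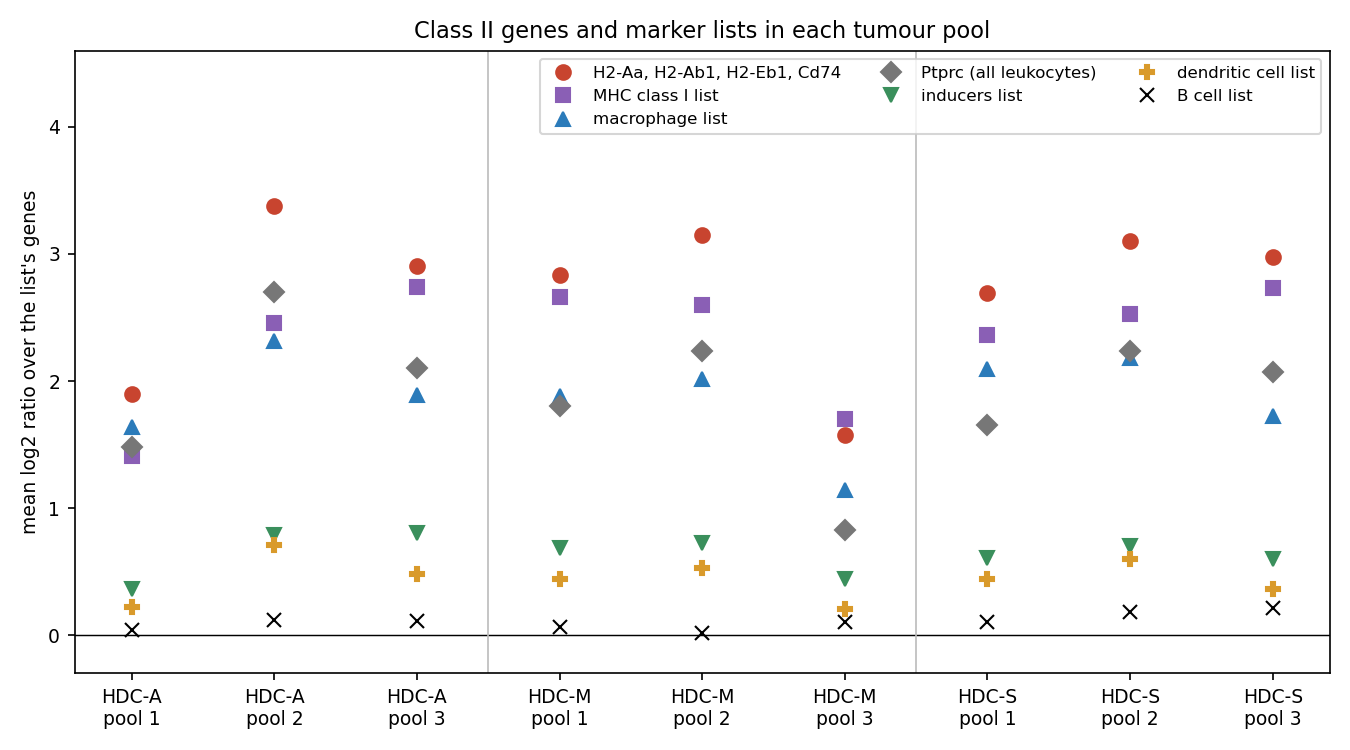
Mean log2 ratio over cultured reference (y axis) in each of the 9 pools (x axis, groups divided by grey lines) for H2-Aa, H2-Ab1, H2-Eb1 and Cd74 as 1 mean, and for lists of marker genes. HDC-A pool 1 and HDC-M pool 3 are the 2 lowest for class II (1.90 and 1.57), class I, Ptprc and the inducer and dendritic cell lists, while the B cell list stays between 0.02 and 0.21 in every pool.

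The genes were next set against that class II profile across the 9 pools, as a description, since the pools share the reference and 2 of them set most of the range. Each of H2-Aa, H2-Ab1, H2-Eb1 and Cd74 was compared with the mean of the other 3. Pearson's r was 0.97 for Cd74, 0.93 for H2-Aa, 0.92 for H2-Ab1 and 0.92 for H2-Eb1. Without the 2 low pools (n = 7) r was 0.80, 0.57, 0.73 and 0.89. Outside these genes r was 0.88 for H2-DMb1, 0.86 for H2-DMa, 0.84 for Ciita, 0.84 for Itgax, 0.81 for Cd83 and 0.32 for Flt3. These changed to 0.29, -0.61, -0.42, 0.46, 0.64 and -0.32 without the 2 low pools. The likeness of H2-DMa, H2-DMb1 and Ciita to the profile thus rested on those pools.

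**Figure D5:**
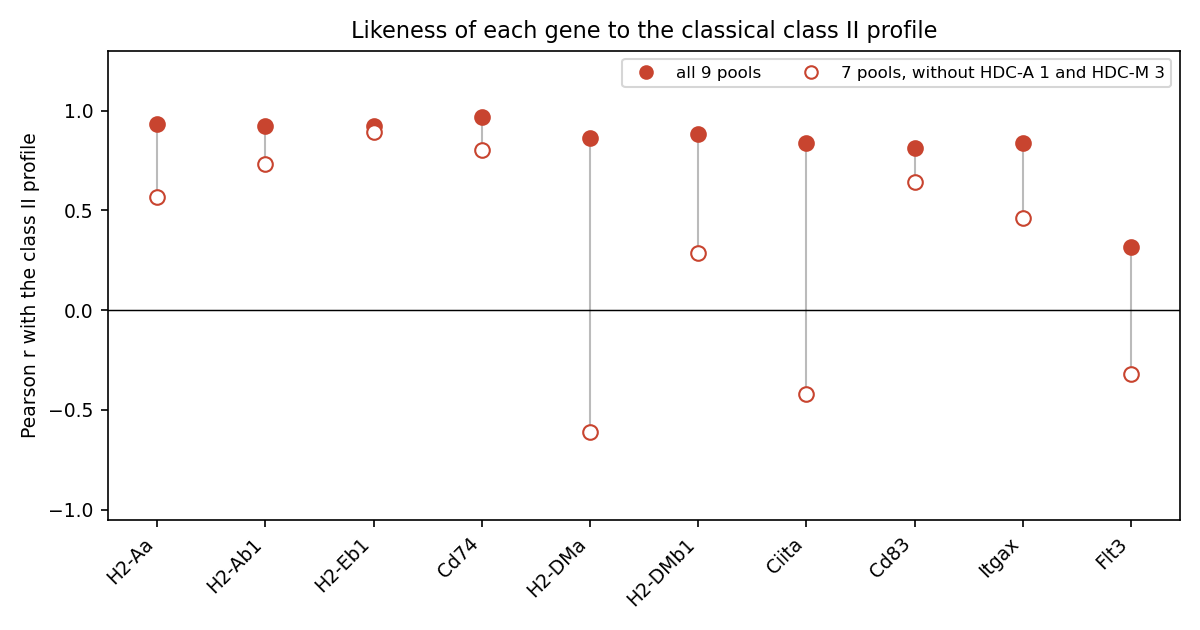
Pearson's r (y axis) of each gene's log2 ratio with the mean of the classical class II genes and Cd74, leaving out the gene itself (x axis). Filled circles use all 9 pools and open circles the 7 pools without HDC-A pool 1 and HDC-M pool 3. H2-Eb1 changes least, from 0.92 to 0.89, and H2-DMa most, from 0.86 to -0.61.

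Among 12333 genes outside the members, 73 had r of 0.9 or more with the class II profile. The 10 highest were Slc11a1, a metal transporter of phagocyte vesicles (r = 0.98), Bcl2a1b (0.97), the Src family kinase Lyn (0.97), Gvin1 (0.97), Aif1, a calcium-binding protein of macrophages also called Iba1 (0.97), the selectin ligand Selplg (0.97), Ly6a (0.96), the cholesterol exporter Abcg1 (0.96), Lrrc25 (0.96) and Ms4a4b (0.96). Over the 7 pools without the low ones their r lay between 0.74 and 0.91. With deviations from the group means in place of values it lay between 0.96 and 0.99. Bcl2a1b, Gvin1, Ly6a and Ms4a4b belong to families of near-identical genes, so the probe's gene is uncertain for them.

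Of the other class II pathway genes, 15 of 18 were measured and none passed in a comparison of groups (0 at adjusted p under 0.05 by limma). Over all probes 0.681% passed in HDC-S against HDC-M, 1.44% in HDC-A against HDC-M and 5.26% in HDC-S against HDC-A. The smallest p-values in HDC-S against HDC-M were those of Rfxank, an RFX subunit (0.26, adjusted p = 0.207), Marchf8, a ubiquitin ligase that removes class II from the surface (-0.16, adjusted p = 0.362), and Nfya, an NF-Y subunit (0.16, adjusted p = 0.428). In HDC-A against HDC-M they were those of the RFX subunit Rfxap (0.26, adjusted p = 0.157), Rfxank (0.23, adjusted p = 0.233) and Marchf8 (0.12, adjusted p = 0.485). Between HDC-S and HDC-A Marchf8 came closest to the threshold, with -0.27 (SE 0.07, adjusted p = 0.0609), ahead of Rfxap (-0.24, adjusted p = 0.119) and H2-DMb2 (0.56, adjusted p = 0.301). Marchf8 read -0.67, -0.56 and -0.68 in HDC-A, -0.82, -0.82 and -0.62 in HDC-M and -0.96, -0.85 and -0.91 in HDC-S pools. Its HDC-S pools overlapped neither those of HDC-A, as with 23.8% of all probes, nor those of HDC-M, as with 21.6%. For Rfxap the HDC-A pools overlapped neither those of HDC-M (20.1% of all probes) nor those of HDC-S. For Rfxank the HDC-M pools overlapped neither those of HDC-S nor those of HDC-A. Marchf8 was below the cultured reference in every pool, unlike the class II chains. H2-Ob, of the DM inhibitor, was above background on no array.

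Of 12 inducers and growth factors, 11 were measured and none passed in a comparison of groups. Over all probes 0.681% (HDC-S against HDC-M), 1.44% (HDC-A against HDC-M) and 5.26% (HDC-S against HDC-A) did. Lowest p-values were those of Ifngr2 (-0.20, adjusted p = 0.313), Tgfb1 (0.11) and Csf2 (-0.08) in HDC-S against HDC-M, of Ifngr1 (0.30, adjusted p = 0.396), Jak1 (0.14) and Jak2 (0.11) in HDC-A against HDC-M, and of Ifngr1 (-0.36, adjusted p = 0.240), Ifngr2 (-0.12) and Jak2 (-0.13) in HDC-S against HDC-A. Irf1, an interferon-induced transcription factor that acts on the Ciita gene, was picked after its values were seen. Irf1 (A_51_P146103) read 2.03, 3.74 and 4.13 in HDC-A, 3.59, 3.64 and 2.89 in HDC-M and 3.32, 3.64 and 3.82 in HDC-S pools. HDC-A pool 1 was lowest and HDC-M pool 3 next. Its part in the class II values was not tested.

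Of 22 further dendritic cell genes, 16 were measured and none passed in a comparison of groups. Over all probes 0.681% (HDC-S against HDC-M), 1.44% (HDC-A against HDC-M) and 5.26% (HDC-S against HDC-A) did. The smallest p-values were those of Epcam (-0.31, adjusted p = 0.211), Ccl17 (-0.11) and Ly75 (0.24) in HDC-S against HDC-M, of Xcr1 (0.14, adjusted p = 0.622), Fscn1 (0.27) and Id2 (-0.11) in HDC-A against HDC-M, and of Id2 (0.23, adjusted p = 0.237), Epcam (-0.20) and Ccl17 (-0.15) in HDC-S against HDC-A. Against the cultured reference 9 (HDC-A), 8 (HDC-M) and 7 (HDC-S) of the 16 passed as higher and 1 as lower. Over all probes the shares that passed as higher were 38.9%, 34.0% and 38.2%. The count was helped by the filter on tumour signal as that of the members was. The C-type lectin Clec10a had means of 3.25, 2.57 and 3.26 in the same order, and the transcription factor Irf8 of 2.65, 2.22 and 2.69. Both are also expressed by macrophages. Tcf4 (0.72, 0.70 and 0.69), Xcr1, a chemokine receptor of cross-presenting dendritic cells (0.45, 0.31 and 0.38), Batf3, a transcription factor of the same cells (0.35, 0.38 and 0.54), and the integrin Itgae (0.37, 0.29 and 0.37) also passed as higher in every group. By their brightest probes, Zbtb46 (-0.05, 0.01 and 0.01), Ccr7 (0.05, 0.15 and 0.10), Cd40 (0.06, 0.13 and 0.13) and Cd86 (0.06, 0.06 and 0.10) passed in no group. The other Cd86 probe passed as higher in HDC-A (0.22, limma adjusted p = 0.029) and HDC-S (0.34, limma adjusted p = 0.0031), but not in HDC-M (0.16). The other Zbtb46 probe, well above background on 3 arrays, passed as higher in HDC-S only (0.14, limma adjusted p = 0.027). The other probe of Xcr1 was well above background on 1 array and that of Itgae on 0. Tcf4 also had signal in the cultured cells, at 2.31 to 3.27 times the negative controls in Cy3. Xcr1 (1.084 to 1.257) and Batf3 (1.109 to 1.286) were above their 95th percentile on all 9 arrays too, by less. By its brightest probe Irf8 (1.051 to 1.214) was above it on 8 arrays, and Itgae and Clec10a were on 0. Id2 was the gene that was lower, with means of -1.72, -1.61 and -1.48. The 6 genes not measured were Cd80, well above background on 1 array, and Irf4, Clec9a, Siglech, Cd209a and Ccl22, well above background on none. The part of dendritic cell content in the class II values was not tested.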

How the data were processed

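Scanner files, made with Agilent Feature Extraction 8.5.1.1 per the file headers, hold deposited intensity values (mean of each spot, median of its surroundings, in both dyes) and other columns that mark spots, per the file headers. The authors' deposited value table, log10 of Cy5 over Cy3, equals the deposited log10 ratio column within 1e-06 at all 43790 spots of every array. Mean signals were corrected with normexp (offset 50) and loess-normalised with limma 3.58.1 in R 4.3.3, with control and outlier spots at weight 0. Spots of a probe were averaged. Probes were named through RefSeq accessions (22072), symbols (745) or synonyms (645). All 9 arrays entered 1 fit (lmFit, eBayes) without a block, and p-values were Benjamini-Hochberg adjusted over all probes kept. The fit was also run on simulated data with noise drawn independently for each probe. That simulation holds no pool that shifts many genes together, so it says nothing about the low pools.

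The members and lists were chosen with earlier results of these data known. All member probes are named, and from the wider lists genes that pass, the 3 smallest p-values per list and comparison, H2-Ea and H2-Eb2. For lists the brightest probe stands for its gene. Deviations from the group means had r of 0.11, 0.55 and 0.14 between same-numbered HDC-A and HDC-S pools. Between same-numbered HDC-M pools and those of the other groups r ran from -0.19 to 0.15. Same-numbered pools of all groups share a scan day, and pools of different numbers were not compared. Whether the numbers pair the samples is therefore not settled. Alternatives changed background correction, normalisation, filter, outlier spots, blocks, scan day and the pools fitted.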

Additional observations from a re-analysis of the deposited data

How the results depend on the processing

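In the 3 comparisons between groups and the F-test, 0 of 14 member probes passed by limma under all of the 22 or 21 settings tried for each, the replicate number as a block (0 passed) and the scan day as a block among them. The replicate block changed no call in the members or wider lists between groups, and over all probes it called 70 in HDC-S against HDC-M, 187 in HDC-A against HDC-M and 1123 in HDC-S against HDC-A, where 183, 387 and 1412 passed without it. Against the cultured reference 12 or 13 probes passed in HDC-A and HDC-M and 13 in HDC-S. The probe that dropped out was H2-DMa, in HDC-A against the cultured reference without 1 HDC-A pool (0.69 to 1.35 over the 9 fits that leave out a pool) and in HDC-M against the cultured reference without 1 HDC-M pool (0.86 to 1.43). Over all probes the counts called ranged from 4 to 315 in HDC-S against HDC-M, 2 to 571 in HDC-A against HDC-M, 4 to 1710 in HDC-S against HDC-A and 5 to 1677 in the F-test. Median centring in place of loess shifted the median of all probes by -0.13 in HDC-S against HDC-M, -0.11 in HDC-A against HDC-M and 0.22 in HDC-M against the cultured reference.

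For single members, each by its brightest probe, 561 of 657 values between groups kept their direction, 96 turned, and none passed (smallest adjusted p = 0.162). The 561 is no measure of stability. Leaving out a pool of a group outside a comparison cannot turn it, and the identical scanner ratio and value table are both counted. No value turned with other filters, blocks, outlier spots kept or only the compared groups fitted. The cause of the turns was not tested. In HDC-S against HDC-M these turned without both low pools, an alternative chosen after seeing the data: H2-Aa (-0.043), H2-Ab1 (-0.235), H2-Eb1 (-0.12), H2-DMa (-0.082), Ciita (-0.0012), Cd83 (-0.11) and Itgax (-0.27). On the first scan day alone they were H2-Aa (-0.091), H2-Ab1 (-0.17), H2-Eb1 (-0.23), H2-DMa (-0.11), H2-DMb1 (-0.076), Itgax (-0.33) and Flt3 (-0.064). Median centring turned H2-Ab1 (-0.22), Itgax (-0.037) and Flt3 (-0.084), no background correction Itgax (-0.051) and Flt3 (-0.0089), and plain subtraction H2-Ab1 (-0.0073), Itgax (-0.067) and Flt3 (-0.068). The scanner software's ratio and the authors' value table, which are identical, turned H2-Ab1 (-0.103), Cd83 (-0.14) and Itgax (-0.346).

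In HDC-A against HDC-M the first scan day alone turned H2-Ab1 (-0.16), H2-Eb1 (-0.074), Cd74 (-0.46), Ciita (-0.235) and Cd83 (-0.025). Median centring turned H2-Ab1 (-0.18) and Cd74 (-0.13), no background correction H2-Ab1 (-0.010) and Ciita (-0.0081), plain subtraction Ciita (-0.015), and the scanner's ratio and the value table Ciita (-0.074) and Flt3 (0.26). In HDC-S against HDC-A Cd74 (-0.073), H2-DMa (-0.0020) and Ciita (-0.033) turned without both low pools. Cd83 turned on the first scan day (0.080), with median centring (0.025), with no background correction (0.0049) and with plain subtraction (0.0024), H2-Ab1 with no background correction (0.021), and Flt3 with plain subtraction (-0.012) and in the scanner's ratio and the value table (-0.070). Against the cultured reference only Flt3 turned: in HDC-A with median centring (-0.038) and in the scanner's ratio and the value table (-0.027), in HDC-S likewise (-0.035 and -0.097), and in HDC-M in the latter pair (-0.29).

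Leaving out 1 pool at a time turned, in HDC-S against HDC-M, H2-Aa (-0.043 to 0.79), H2-Ab1 (-0.235 to 0.43), H2-Eb1 (-0.12 to 0.72), H2-DMa (-0.082 to 0.49), Ciita (-0.0012 to 0.35), Cd83 (-0.11 to 0.39), Itgax (-0.27 to 0.29) and Flt3 (-0.026 to 0.077). In HDC-A against HDC-M all 10 genes turned in some fit: H2-Aa (-0.55 to 0.44), H2-Ab1 (-0.20 to 0.48), H2-Eb1 (-0.024 to 0.89), Cd74 (-0.29 to 0.68), H2-DMa (-0.45 to 0.29), H2-DMb1 (-0.58 to 0.34), Ciita (-0.099 to 0.25), Cd83 (-0.10 to 0.39), Itgax (-0.37 to 0.18) and Flt3 (-0.061 to 0.031). In HDC-S against HDC-A these were H2-Ab1 (-0.33 to 0.29), H2-Eb1 (-0.53 to 0.28), Cd74 (-0.073 to 0.73), H2-DMa (-0.0020 to 0.66), Ciita (-0.033 to 0.23), Cd83 (-0.25 to 0.21) and Flt3 (-0.017 to 0.10). With 1 pool in 3 able to set a group mean, differences under the intervals given are not resolved by these arrays, and signal near the negative controls limits Ciita, Itgax and Flt3 further.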
